A study of Mus musculus with 12 samples.

Results

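The genes described here encode the proteins of synaptic vesicles and of the SNARE machinery that fuses vesicles with their target membranes. They were chosen by symbol alone, as every listed gene whose symbol begins with Syt, Stx, Vamp, Snap, Stxbp, Cplx or Rims followed by a digit, together with the synapsins Syn1, Syn2 and Syn3 and the vesicle glycoproteins Sv2a, Sv2b and Sv2c. That rule found 59 of the 14177 genes listed for the libraries of the Cre- label, and 48 of these were also among the 9112 genes listed for the libraries of the Cre+ label. Every gene in the table of the Cre+ label has 5 or more counts in each of its libraries, and the 11 genes not listed there were Stx6, Stxbp2, Stxbp4, Stxbp6, Syt13, Syt14, Syt15, Syt16, Syt17, Vamp5 and Vamp8.

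The libraries came from dissociated mouse dorsal root ganglion (DRG) neurons, purified on Percoll and kept for 24 h in F12 medium with serum. All mice were males of 3 to 6 months by the labels and homozygous for Rpl22HA, an allele that adds an HA tag to a ribosomal protein once Cre has acted. The genotype labelled Runx3-Cre+ carried Cre under the control of Runx3, a transcription factor of proprioceptive neurons, and the other, labelled Cre-, consisted of littermates without Cre that were sequenced as a control for background. For each genotype 3 HA pull-downs and 3 inputs (lysate before immunoprecipitation) were sequenced, with 5 mice pooled in each sample. A pull-down to input ratio thus measures how far a transcript was enriched on the precipitate relative to total RNA of the cultures of that genotype. It compares the groups, since pull-downs were not paired with inputs in the main test. That ratio was tested in each genotype, and the difference of the ratios between the genotypes was tested as an interaction.

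At a synapse, synaptobrevins (Vamp genes) on the vesicle pair with a syntaxin and a SNAP-25 protein on the plasma membrane to form the SNARE complex. Syntaxin-binding proteins (Stxbp genes) and complexins control its assembly, and synaptotagmins act as calcium sensors that trigger fusion. Other syntaxins, synaptobrevins and SNAP-25 relatives serve the endosomes, the Golgi apparatus and constitutive secretion in every cell, so the family holds neuronal members and ubiquitous paralogs side by side. DRG neurons use this machinery at their central terminals and, in peripheral neurites, for membrane addition and peptide release.

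Libraries held between 8886308 and 18633365 counts on listed genes, with the deepest among the pull-downs of the Cre- label (14861795 to 18633365) and the shallowest among those labelled Cre+ (8886308 to 11457315). Values below, unless named as FPKM or a log2 fold change, are normalised counts, that is, counts per 1000000 after scaling by the trimmed mean of M values (TMM), computed separately in each genotype, so levels are compared within a genotype. Where values are given as 1 set against another, the pull-downs come first and the inputs second, each in the order of replicates 1, 2 and 3. For the Cre- label, summed counts of 5 proprioceptor markers were 1230 to 1530 in pull-downs and 209 to 290 in inputs, and all 5, Runx3 included, were called enriched. With the Cre+ label, 4 of these markers were listed, their sum was 345 to 504 in pull-downs and 176 to 237 in inputs, and only Ntrk3 was called. Runx3 itself had a log2 fold change of 1.55 ± 0.87 SE, adjusted p = 0.309, under the Cre+ label (0.731 without pull-down 1, adjusted p = 0.568), where its pull-downs were at 22.8, 2.07 and 11.1, and of 3.52 ± 0.43 SE, adjusted p = 0.000236, under the Cre- label. The difference between the labels, Cre+ minus Cre-, was not called for Runx3 (log2 −1.93, adjusted p = 0.302 by edgeR's interaction test). It was called for 2 of the 4 markers tested, Etv1 and Spp1, both higher under the Cre- label (all genes, 2.03%). The genotypes are therefore named by their labels throughout. The pull-down columns of the table named for the Cre+ samples carry, apart from punctuation, the titles of Cre- samples. Whether labels or tables were exchanged was not tested, and an exchange would turn around every statement that sets one genotype against the other. Replicate numbers of the Cre+ label are those of the columns, which tell libraries apart and could be tied to a group but not to a numbered sample.

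Replicate 1 of the pull-downs of the Cre+ label stood apart from the rest. Its correlation with the other pull-downs of its group, across genes on a log scale, was 0.725 and 0.687, against 0.832 between those other pull-downs, 0.93 to 0.962 among pull-downs labelled Cre- and 0.913 to 0.975 among inputs. In that library, 3 endothelial markers summed to 381 normalised counts against 96.6 and 101 in the other pull-downs of its group, and 2 macrophage markers to 112 against 16.8 and 4.85. Most of the endothelial sum was Pecam1, at 255 against 20.2 and 17.8, while Cdh5 was level at 61.1, 59.9 and 69.6. In the inputs of the Cre+ label the endothelial sum was 46.1, 58.5 and 82.3, below that of every pull-down, though none of the 3 markers was called. The macrophage sum in these inputs was 68.2, 25.8 and 31.2. The sum of 4 fibroblast markers did not stand out in pull-down 1 (76.5, 74.5 and 66.8 in pull-downs 1, 2 and 3). The sum of 5 glial markers was 1635, 1637 and 2264, most of it Pmp22 (1311, 1407 and 2095). Without Pmp22 the glial sum was highest in pull-down 1 (323, 230 and 169), as was Sox10 (103.9, 47.8 and 9.58). Fold changes of the Cre+ label are therefore also given without this library for the vesicle and SNARE genes described with values in every library, other than Stx3 and Stx11. Pull-down replicate 1 of the Cre- label likewise had the most endothelial, fibroblast and macrophage signal of its group. It had 113 for the endothelial markers against 15.3 and 15.5, 86.5 for 5 fibroblast markers against 28.3 and 25.1, and 56.6 for 4 macrophage markers against 26.5 and 27.2. Its glial sum was 1668 against 1261 and 1383, but without Pmp22 it was the lowest, at 509 against 554 and 588. Most of that remainder was S100b (447 against 533 and 571), while Sox10 was highest in this library (27 against 7.32 and 2.31). Its markers of other sensory neurons summed to 1484 against 818 and 479. Without that library, 12 of the 56 genes tested under the Cre- label were called enriched and 8 depleted, at a median log2 fold change of 0.211 (all genes, 7.09% and 9.2%, median −0.045).

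Several results below rest on telling apart close paralogs, so coding sequences of 3 such pairs are shown. For each pair the lines give the 30-base window with the most matches among windows that lie, without a gap, inside a single exon of both genes, 5′ to 3′ on the coding strand, from GENCODE M21 transcripts on GRCm38, with capitals at the bases that differ.
Vamp1: gggaccagaagttgtcAgagctggatgacc
Vamp2: gggaccagaagttgtcGgagctggatgacc
Snap25: gaaggGatggaccaaatCaataaGgacatg
Snap23: gaaggCatggaccaaatAaataaAgacatg
Cplx2: gggccaccaaggacatggggaagatgctGg
Cplx1: gggccaccaaggacatggggaagatgctTg

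The windows lie at chr6:125218954-125218983 (plus strand, exon 3 of 5) for Vamp1 and chr11:69089774-69089803 (plus, exon 3 of 5) for Vamp2. The SNAP-25 family windows lie at chr2:136770077-136770106 for Snap25 and chr2:120586179-120586208 for Snap23 (both plus, exon 5 of 8), and the complexin windows at chr13:54378812-54378841 (plus, exon 3 of 4) for Cplx2 and chr5:108525538-108525567 (minus, exon 3 of 4) for Cplx1. Over their aligned coding bases the pairs were 77.2% (Vamp1 and Vamp2), 66.5% (Snap25 and Snap23) and 79.6% (Cplx2 and Cplx1) identical. No stretch of 50 bases, the read length, was shared by the annotated transcripts of any of these pairs, and the longest run shared by their coding sequences was 18, 13 and 32 bases in the same order. A full-length read of 1 paralog therefore has at least 1 mismatch to the other.

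Measured per length, by the authors' mean FPKM over the 6 libraries of a table, Snap25 was by far the most abundant of these genes, at 5232 in the table labelled Cre- and 2937 in that labelled Cre+. Others above 100 FPKM in the table labelled Cre- included Cplx1 (572.5 FPKM), Syn1 (467), Vamp2 (451), Syt4 (357), Vamp1 (236), Syt11 (234), Sv2c (211), Sv2b (135), Stx12 (131) and Snap91 (104). In all, 12 genes were above 100 FPKM in each table and 34 above 10. Of the 5 ubiquitous paralogs, Snap23 was at 7.54 FPKM, Vamp3 at 12.4, Vamp8 at 5.11 and Stxbp3a at 2.13 in the table labelled Cre-. Stx4a, at 60.04 FPKM, was above the neuronal Syt2 (40.6 FPKM), Syt1 (30.2), Stx1a (6.39) and Sv2a (5.93). These are pooled means with no replicate error.

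Of the 59 genes, 56 passed the filter (authors' mean FPKM above 1) under the Cre- label and 48 under the Cre+ label. The 3 that did not pass were Syt13, Stxbp2 and Vamp5. A gene was called enriched or depleted at an adjusted p below 0.1 (edgeR's quasi-likelihood test, Benjamini-Hochberg over all genes tested) and a change of at least 2-fold. Of those tested under the Cre- label, 11 of 56 (19.6%) were enriched and 9 (16.1%) depleted, against a background of 6.01% and 5.83% of 11526 genes. Of those tested under the Cre+ label, 3 of 48 (6.25%) were enriched and 0 depleted, against 4.72% and 2.19% of 8947 genes. Pull-downs lay entirely above inputs for 21 and entirely below them for 17 of the 56 under the Cre- label (all genes, 18.2% and 18.6%), and for 10 and 9 of the 48 under the Cre+ label (all genes, 15.5% and 17.9%). The median log2 fold change was −0.0391 for these genes and −0.0384 for all genes tested under the Cre- label, and 0.0731 and 0.076 under the Cre+ label.

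The genes called enriched under the Cre- label included Snap25, Snap91, Stx18, Stxbp5l, Stxbp6, Sv2a, Sv2b, Syt12, Syt2 and Vamp1. Those called depleted were Snap23, Stx1a, Stx2, Syt5, Syt6, Syt9, Syt15, Syt16 and Vamp2. Cplx2, Stxbp5 and Stxbp5l were the enriched genes of the Cre+ label. Beside the 0 depleted genes there, 4 genes had a negative fold change at an unadjusted p below 0.05 (Snap25, Stx12, Stx7 and Vamp2; all genes, 9.55%), and the number called depleted was 1 by DESeq2 (all genes, 6.35%) and 1 by the exact test of edgeR (5.11%). Without replicate 1 of the pull-downs of the Cre+ label, 6 genes were enriched and 1 depleted (all genes, 8.98% and 6.04%). All 3 enriched genes lost their call when any 1 of the 3 inputs labelled Cre+ was left out, with 0 genes enriched in each of these fits, in which 0.0782%, 0.659% and 0.0447% of all 8947 genes were called enriched (without input 1, 2 and 3). With the replicate number as a block, 1 gene of the Cre+ label (Stxbp5) was called (all genes, 2.37% enriched and 0.548% depleted).

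Some calls depended on the scaling or the fit. Scaled by library size alone in place of TMM, the median log2 fold change of all genes moved from −0.0384 to −0.273 under the Cre- label and from 0.076 to −0.361 under the Cre+ label, and the medians of these genes moved with it, to −0.275 and −0.365. Scaled this way, 7 genes were enriched and 13 depleted under the Cre- label (all genes, 3.72% and 10.7%), and 0 and 4 under the Cre+ label (2.15% and 7.81%). The 3 calls under the Cre+ label were thus lost, and calls lost by the fold limit under the Cre- label included those of Snap25, Sv2a and Syt12. With all 12 libraries in 1 fit, which shares the spread of all libraries and tests only the 8889 filtered genes that both tables list (48 of the 56, without Stxbp6, Syt15 and Syt16 among others), 6 genes were enriched and 2 depleted under the Cre- label (all genes, 3.03% and 1.97%), and the calls of Snap23, Stx18, Stx1a, Stx2, Sv2a, Syt12, Syt2, Syt5 and Syt9 under the Cre- label were lost (adjusted p 0.15 to 0.676), and each kept its direction. The labels do not say that samples of a group were separate cultures, so p-values measure the spread between these samples.

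**Figure D1:**
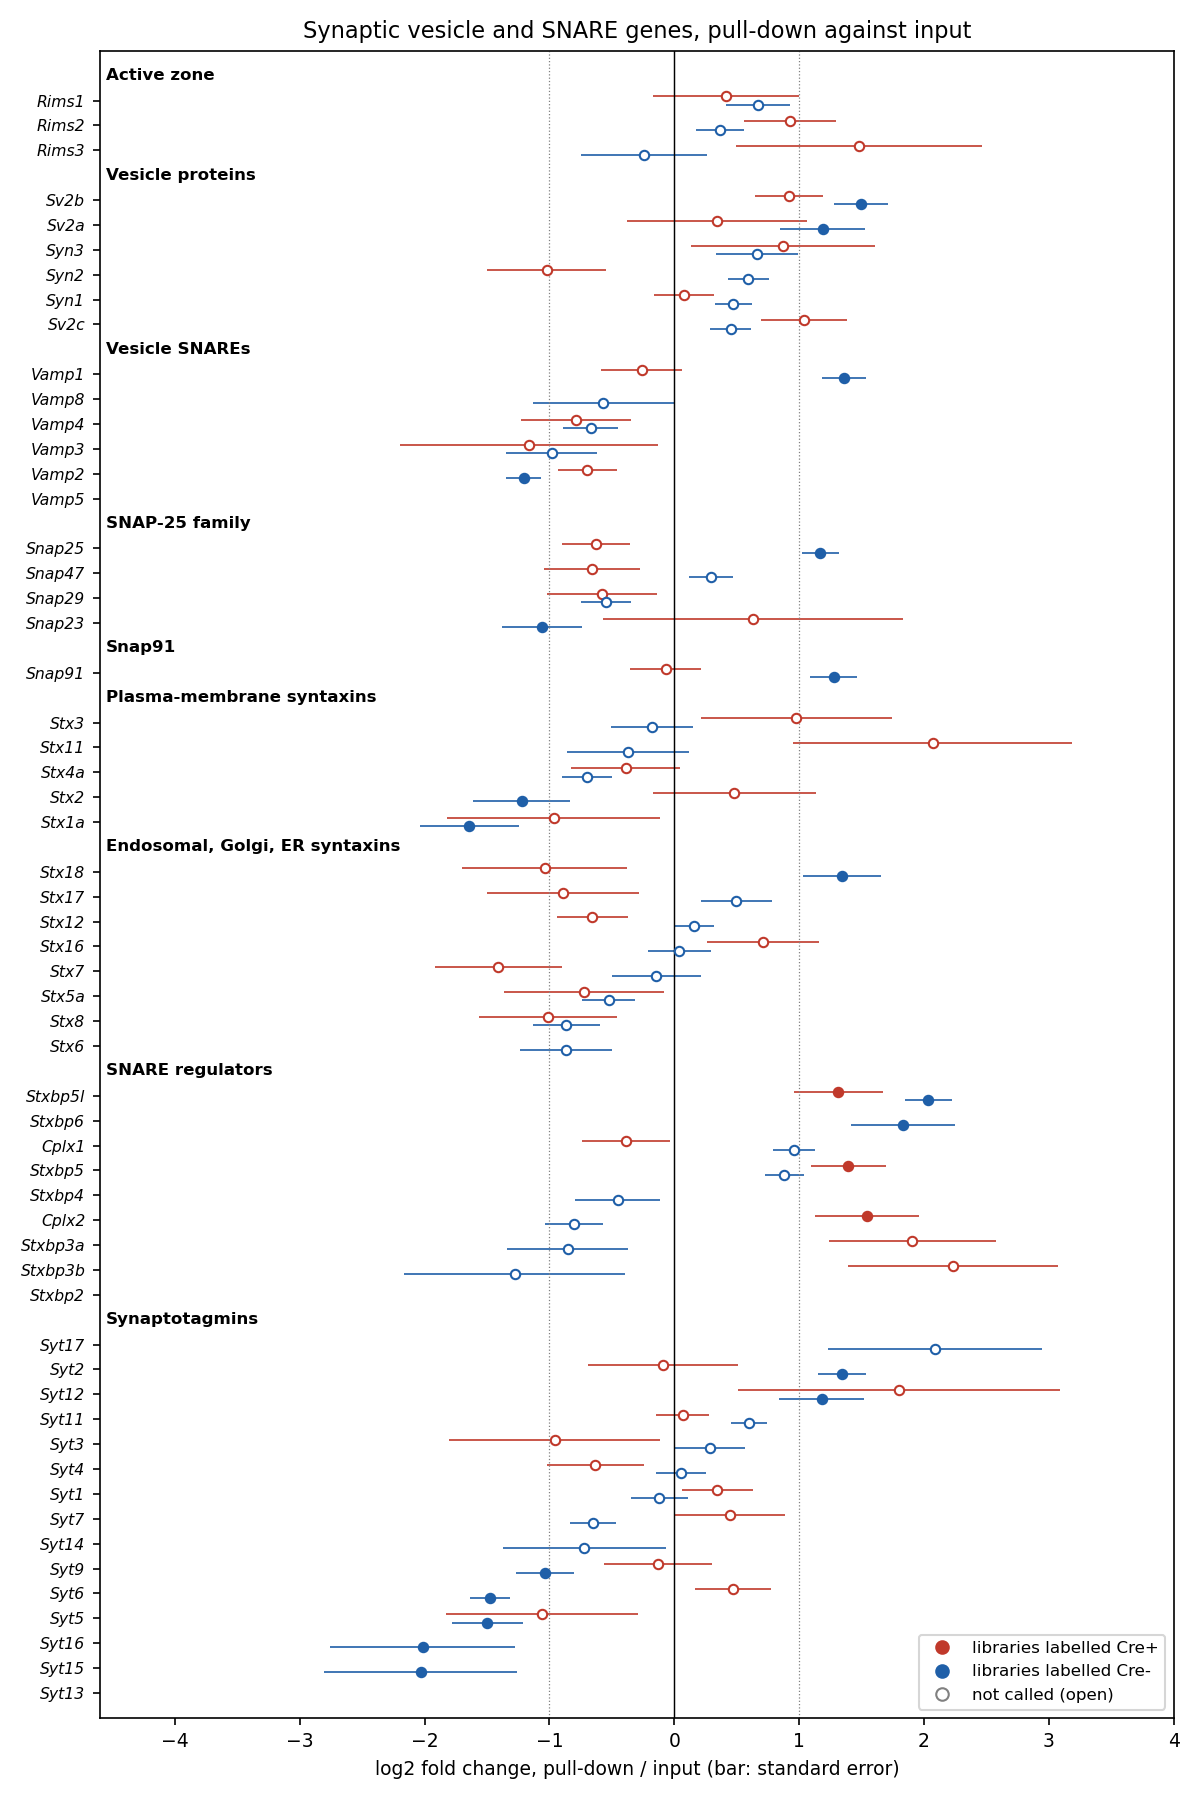
Log2 fold change of pull-down over input for 57 of the 59 genes, ordered by role, under the Cre+ label (red) and Cre- (blue). Points are edgeR estimates with standard errors, filled where called, dotted lines mark a 2-fold change, and genes with no point in a genotype were not tested there. Called genes of the libraries of the Cre- label lie on both sides of 0, while the 3 called under the Cre+ label lie to the right.

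Among the vesicle SNAREs, Vamp1 and Vamp2, the synaptobrevins of neuronal exocytosis, moved apart under the Cre- label. Vamp1 had 788, 1177 and 956 normalised counts in the pull-downs and 429, 384 and 324 in the inputs, a 2.57-fold enrichment (log2 1.36 ± 0.18 SE, adjusted p = 0.000342). Vamp2 had 509.7, 604 and 521 in the pull-downs and 1247, 1226 and 1299 in the inputs, a 2.31-fold depletion (log2 −1.21 ± 0.14 SE, adjusted p = 0.000157). Pull-downs and inputs did not overlap for either gene, and both calls held with each library left out in turn. The ratio of Vamp1 to Vamp2 counts within a library, compared only between libraries, was 1.55 to 1.95 in these pull-downs and 0.25 to 0.344 in the inputs.

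Vamp1 under the Cre+ label had 224, 244 and 444 in the pull-downs and 446, 306 and 339.9 in the inputs (log2 −0.26 ± 0.32 SE, adjusted p = 0.656). Vamp2 had 571, 794 and 734 against 1270, 1062 and 1067 (log2 −0.70 ± 0.24 SE, adjusted p = 0.126). The groups overlapped for Vamp1, while every pull-down lay below every input for Vamp2. Neither gene passed the test, and the Vamp1 to Vamp2 ratio was 0.307 to 0.605 in pull-downs and 0.288 to 0.351 in inputs. Without pull-down 1 the log2 fold change was −0.0454 (adjusted p = 0.94) for Vamp1 and −0.531 (adjusted p = 0.141) for Vamp2. Scaled by library size alone, Vamp2 was called depleted there (log2 −1.12, adjusted p = 0.0534). Of the other vesicle SNAREs, Vamp3, the cellubrevin of constitutive recycling, ranged from 9.38 to 30.4 in the pull-downs of the Cre- label and from 31.5 to 44 in the inputs (log2 −0.98 ± 0.37 SE, adjusted p = 0.088, just short of a 2-fold change). It was called depleted with a replicate block (log2 −1.12, adjusted p = 0.0245), without pull-down 1 (log2 −1.48, adjusted p = 0.00364) and under 2 other scalings. Vamp8, a late endosomal SNARE, was at 1.96 to 4.07 and 2.65 to 7.94, and Vamp4, of the trans-Golgi network, had a log2 fold change of −0.67 ± 0.22 SE, adjusted p = 0.0574.

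Among the plasma-membrane syntaxins, Stx1a and Stx2 were depleted under the Cre- label. Stx1a, a neuronal syntaxin of exocytosis, had 7.92, 3.05 and 4.24 in the pull-downs and 13.9, 16.6 and 17.2 in the inputs (3.12-fold lower, log2 −1.64 ± 0.40 SE, adjusted p = 0.014). Every pull-down lay below every input, and the call held without any 1 library.

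For the Cre+ label, Stx1a was at 1.33, 12.4 and 16.9 in pull-downs and 27.4, 15.7 and 16.8 in inputs (log2 −0.97 ± 0.85 SE, adjusted p = 0.515), with pull-down replicate 1 far below the others, and it did not pass the test. Without that library it was at −0.409 (adjusted p = 0.636). Stx2, a syntaxin of many tissues, was at 7.2, 7.32 and 15.7 in the pull-downs of the Cre- label and 14.1, 28.4 and 27.7 in the inputs (log2 −1.22 ± 0.39 SE, adjusted p = 0.0479). The Stx2 groups overlapped, and its call was lost without input 2, input 3 or pull-down 2 (adjusted p 0.154 to 0.178). Stx4a, the syntaxin of constitutive and insulin-regulated exocytosis, ranged from 44.6 to 67.7 and from 84.6 to 105.7 there, at log2 −0.70 ± 0.20 SE, adjusted p = 0.0328, under the fold limit. In the pull-downs of the Cre+ label it ranged from 41 to 120.3, overlapping its inputs (84.5 to 130.2). Its log2 fold change there was −0.39 ± 0.44 SE, adjusted p = 0.618, and −0.766 (adjusted p = 0.216) without pull-down 1. Stx3 and Stx11, which serve apical and immune-cell secretion, did not pass the test in either genotype.

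Replicate 1 of the pull-downs of the Cre+ label carried the highest level of 3 of these syntaxins by a wide margin. Stx11 was at 159, 5.85 and 8.2, Stx2 at 61.2, 16.7 and 16.5 and Stx3 at 59.4, 10.8 and 11.1 in pull-downs 1, 2 and 3. The log2 fold change of Stx2 was 0.48 ± 0.65 SE, adjusted p = 0.688, with that library and −0.403 (adjusted p = 0.598) without it. Among the libraries of the Cre+ label, the endothelial and macrophage markers were highest in the same one, and their part in these values was not tested.

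Snap25, the neuronal SNAP-25 protein, was enriched under the Cre- label, with 15510, 16350 and 15130 in the pull-downs and 8392, 6241 and 6245 in the inputs (2.25-fold, log2 1.17 ± 0.15 SE, adjusted p = 0.000275). Its ubiquitous paralog Snap23 was depleted, with 10.9, 10.4 and 11.3 against 31.9, 14.9 and 21.4 (2.09-fold, log2 −1.06 ± 0.32 SE, adjusted p = 0.0391). Neither gene's groups overlapped. The Snap23 call was lost without input 1 or pull-down 2 (adjusted p 0.165 and 0.124) and, by the fold limit, with a replicate block (log2 −0.997), while the Snap25 call held without any 1 library. Scaled by library size alone, Snap25 was at 0.934 on the log2 scale, under 2-fold.

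Snap25 did not pass the test under the Cre+ label, at 4763, 3575 and 5082 in pull-downs and 9507, 5507 and 5687 in inputs (log2 −0.63 ± 0.27 SE, adjusted p = 0.201). Without pull-down 1 it was at −0.637 (adjusted p = 0.193), and scaled by library size alone it was called depleted (log2 −1.07, adjusted p = 0.0623). Snap23 was at 129.9, 6.58 and 2.54 in pull-downs and 53.4, 24.1 and 12.5 in inputs. The sign for Snap23 depended on the fit: the log2 fold change was 0.63 ± 1.20 SE, adjusted p = 0.787, with pull-down replicate 1 and −2.68 without it (adjusted p = 0.0699), and −1.03 with a replicate block (adjusted p = 0.532). The other SNAP-25 relatives, Snap29 and Snap47, which act in intracellular fusion, were not called in either genotype, with log2 fold changes of −0.66 to 0.29.

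Snap91 shares the prefix but encodes AP180, a clathrin assembly protein that retrieves synaptic vesicle membrane, at chr9:86765923-86880734 (this and the gene positions that follow are from RefSeq on GRCm38). It had 496, 745 and 838 in the pull-downs of the Cre- label and 271, 276 and 311 in the inputs (2.42-fold, log2 1.28 ± 0.19 SE, adjusted p = 0.000855). With the Cre+ label it had 198, 216 and 293 against 200.1, 256 and 286 (log2 −0.07 ± 0.28 SE, adjusted p = 0.907), or 0.0815 (adjusted p = 0.863) without pull-down 1. The groups were apart in the first case and overlapped in the second.

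**Figure D2:**
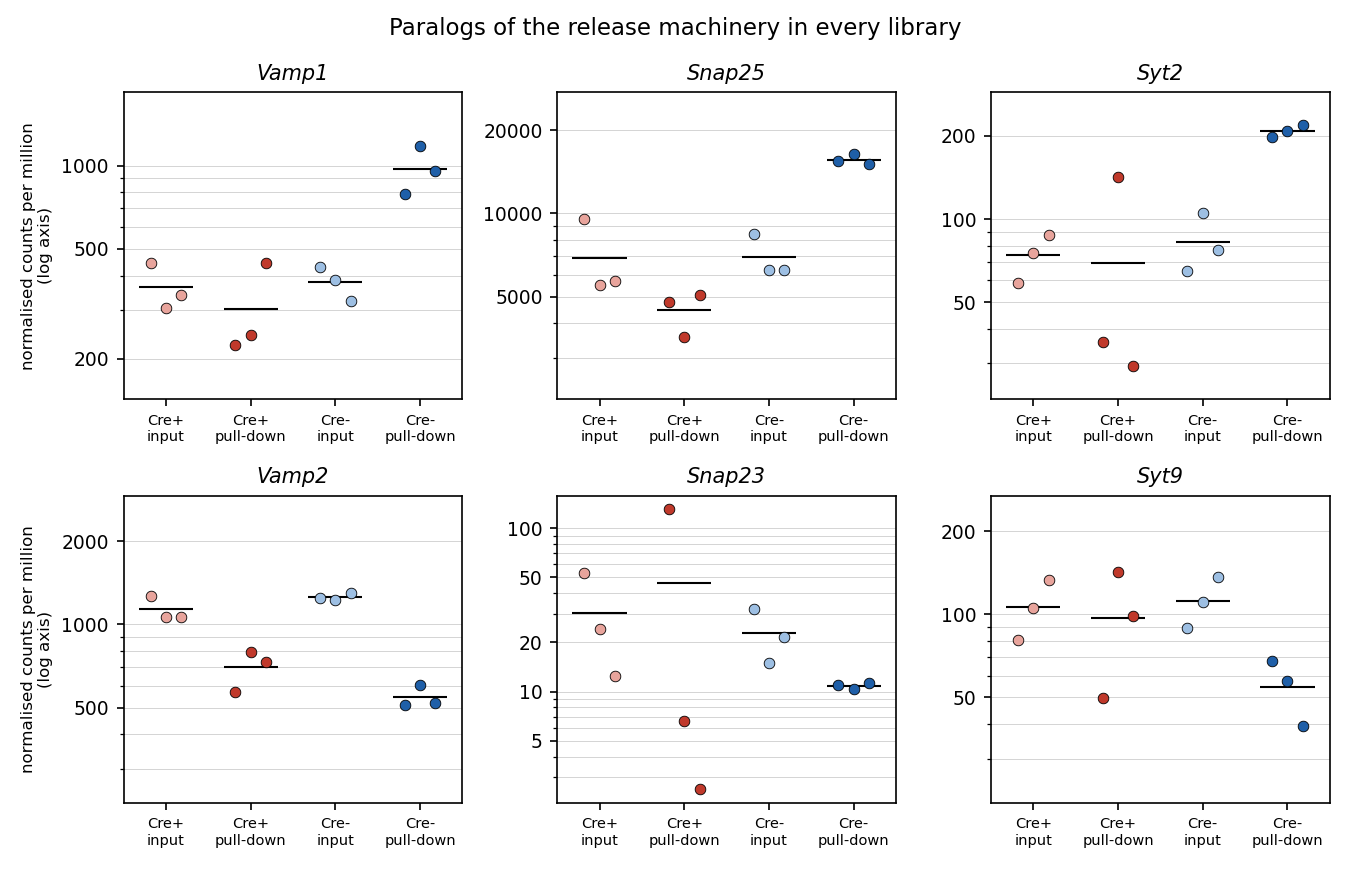
Normalised counts per 1000000 (log axis) of 3 enriched genes (upper row) and 3 depleted relatives (lower row) in every library, with points for the 3 libraries of a group and a bar at their mean. The blue pull-downs lie above their inputs for Vamp1, Snap25 and Syt2 and below them for Vamp2, Snap23 and Syt9, while the red pull-downs lie below their inputs for Vamp2 and Snap25 and overlap them for the other 4 genes.

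Synaptotagmins also fell on both sides of 0 under the Cre- label, where 2 of 14 tested were enriched and 5 depleted (all genes, 6.01% and 5.83%). Syt2 (chr1:134646534-134753149), a fast calcium sensor of synchronous release, had 198, 209 and 219 in the pull-downs and 64.9, 105 and 77.5 in the inputs (2.53-fold, log2 1.34 ± 0.19 SE, adjusted p = 0.000666). Syt1, its close relative with the same role in other neurons, had 176, 122 and 91.4 against 165, 135 and 122 (log2 −0.12 ± 0.23 SE, adjusted p = 0.768), with overlapping groups. Syt12, which lacks the residues for calcium binding, had 25.8, 33.3 and 51.7 against 11.4, 13.8 and 23.6 (log2 1.18 ± 0.34 SE, adjusted p = 0.032). No pull-down of Syt2 or Syt12 fell within the range of the inputs. The Syt2 call held without any 1 library, whereas that of Syt12 was lost without input 1, input 2 or pull-down 3 (adjusted p 0.113 to 0.131). Of the exon bases of Syt12, 17.2% overlap an antisense gene, A930001C03Rik, and whether the counting used strand is not stated in the sources used here.

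Of the depleted synaptotagmins, Syt6 (chr3:103575245-103645567) had the lowest adjusted p, with 82.3, 76.4 and 68.3 in the pull-downs of the Cre- label and 199, 211 and 219.9 in the inputs (2.78-fold lower, log2 −1.47 ± 0.16 SE, adjusted p = 0.000112). Syt5, another calcium-binding synaptotagmin, had 39.1, 25.9 and 21.1 against 54.6, 92.7 and 96.1 (log2 −1.50 ± 0.28 SE, adjusted p = 0.0037). Syt9, a relative of Syt1 and Syt2, had 67.5, 57.4 and 39.3 against 89.4, 110.5 and 136 (log2 −1.03 ± 0.23 SE, adjusted p = 0.00983). Pull-downs lay below inputs without overlap for these 3 genes. Of the exon bases of Syt6, 8.67% overlap the antisense Atg4a-ps. The calls of Syt5 and Syt6 held without any 1 library, and that of Syt9 fell under 2-fold without input 3 or pull-down 3.

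Syt15 and Syt16, both without calcium-binding residues, were low in every library. Syt15 had 0.279, 1.56 and 0.744 in the pull-downs and 5.78, 2.31 and 2.5 in the inputs (log2 −2.03 ± 0.77 SE, adjusted p = 0.0916). Syt16 had 0.558, 3.05 and 0.819 against 10.2, 5.04 and 2.73 (log2 −2.02 ± 0.74 SE, adjusted p = 0.0828), with 1 pull-down inside the range of the inputs. The call of Syt15 was lost without any 1 of the inputs or without pull-down 1 or 3 (adjusted p 0.119 to 0.294), that of Syt16 without input 1 or 2 or pull-down 1 or 3 (0.138 to 0.304), and both when no gene filter was applied (0.131 and 0.102). With a replicate block the adjusted p of Syt15 was 0.139. Syt7, the high-affinity sensor of slow and asynchronous release, had a log2 fold change of −0.65 ± 0.18 SE, adjusted p = 0.0289, below the fold limit, and Syt11, which does not bind calcium, was at 0.60 ± 0.14 SE, adjusted p = 0.0133. Syt3, Syt4, Syt14 and Syt17 did not pass the test.

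None of the 10 synaptotagmins tested under the Cre+ label was called (all genes, 4.72% enriched and 2.19% depleted). Syt2 had 36, 142 and 29.3 in pull-downs and 58.6, 75.6 and 87.2 in inputs (log2 −0.09 ± 0.60 SE, adjusted p = 0.941), with pull-down replicate 2 well above the others. Syt1 had 154, 169.7 and 136 against 113, 122 and 127 (log2 0.34 ± 0.28 SE, adjusted p = 0.483), every pull-down being above every input. Syt6 had 172, 292 and 316 against 163, 192 and 208 (log2 0.47 ± 0.31 SE, adjusted p = 0.375). Replicate spread was wide for the less abundant sensors. In pull-downs 1, 2 and 3, Syt12 was at 1.11, 9.51 and 151 against 14.7, 9.29 and 22.5 in inputs (log2 1.80 ± 1.29 SE, adjusted p = 0.418), and Syt5 was at 4.33, 75.7 and 40.2 against 87.6, 80.3 and 82.6 (log2 −1.06 ± 0.77 SE, adjusted p = 0.424). Syt9 was at 49.6, 142 and 98.8 against 80.5, 105 and 133, with overlapping groups (log2 −0.13 ± 0.43 SE, adjusted p = 0.885). Without pull-down 1 the log2 fold change was 0.261 (adjusted p = 0.786) for Syt2, 0.377 (adjusted p = 0.361) for Syt1 and 0.735 (adjusted p = 0.0816) for Syt6. In the same fit it was 2.41 (adjusted p = 0.11) for Syt12, −0.489 (adjusted p = 0.395) for Syt5 and 0.224 (adjusted p = 0.672) for Syt9, so the sign of Syt2 and Syt9 turned and none was called.

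Among the regulators of SNARE assembly, Stxbp5l was the single gene, among the 48 tested in both genotypes, that was called enriched in both. Stxbp5l (chr16:37107075-37385015) encodes tomosyn-2, and Stxbp5 (chr10:9755547-9901287) tomosyn-1, proteins with a SNARE-like motif that hold syntaxin and SNAP-25 away from the vesicle. Stxbp5l had 334, 438 and 432 in the pull-downs of the Cre- label and 109, 108 and 77 in the inputs (4.1-fold, log2 2.03 ± 0.19 SE, adjusted p = 4.72e-05), and 199, 188 and 186 against 47.1, 104 and 79.1 under the Cre+ label (2.49-fold, log2 1.31 ± 0.35 SE, adjusted p = 0.0838). Stxbp5 had 379, 375 and 546 against 121, 174 and 200.4 in the latter (2.63-fold, log2 1.39 ± 0.30 SE, adjusted p = 0.0525). For the Cre- label it had 324, 323 and 338 against 151, 182 and 202, at log2 0.88 ± 0.16 SE, adjusted p = 0.00259, under the fold limit. For both tomosyns no pull-down overlapped an input in either genotype.

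The calls under the Cre+ label held without pull-down replicate 1, at a log2 fold change of 1.52 (adjusted p = 0.0237) for Stxbp5 and 1.32 (adjusted p = 0.0509) for Stxbp5l. Without input 1, 2 or 3 the adjusted p was 0.145 to 0.21 for Stxbp5, and without any 1 library other than pull-down 1 it was 0.103 to 0.291 for Stxbp5l. With a replicate block Stxbp5l lost its call (adjusted p = 0.126). The call of Stxbp5l under the Cre- label held without any 1 library and under every alternative run.

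Complexins clamp and promote fusion by binding the assembled SNARE complex. Cplx2 had 489, 1088 and 1862 in the pull-downs of the Cre+ label and 369, 406 and 403 in the inputs (2.92-fold, log2 1.54 ± 0.42 SE, adjusted p = 0.0847). It had 199, 379.8 and 207 against 466, 506 and 399 under the Cre- label (log2 −0.80 ± 0.23 SE, adjusted p = 0.0368, under the fold limit). Pull-downs were all above inputs in the first case and all below them in the second. The enrichment was lost without any 1 of the 3 inputs or without pull-down 2 or 3 (adjusted p 0.118 to 0.333). It held without pull-down 1 at log2 1.95 (adjusted p = 0.00996) and was lost with a replicate block (log2 1.35, adjusted p = 0.113). Under the Cre- label, Cplx2 was called depleted without pull-down 2 (log2 −1.17, adjusted p = 0.00457) and when scaled by library size alone (log2 −1.05, adjusted p = 0.00696).

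Cplx1 was called in neither genotype. It had 1292, 1944 and 1835 in the pull-downs of the Cre- label and 965, 842 and 800 in the inputs (log2 0.96 ± 0.17 SE, adjusted p = 0.00256, just under 2-fold), and 304, 772 and 647 against 928, 659 and 665 under the Cre+ label (log2 −0.39 ± 0.35 SE, adjusted p = 0.524; without pull-down 1, −0.0444 (adjusted p = 0.924)). It was called enriched under the Cre- label without input 1 (log2 1.04, adjusted p = 0.00588) or pull-down 1 (log2 1.14, adjusted p = 5.4e-05). The ratio of Cplx1 to Cplx2 counts was 1.66 to 2.07 in the inputs and 5.12 to 8.85 in the pull-downs of the Cre- label, and 1.62 to 2.51 in the inputs and 0.347 to 0.71 in the pull-downs of the Cre+ label. Within each genotype, pull-downs and inputs were apart in this ratio, in opposite directions. The difference of enrichment between genotypes was not called for Cplx1 (log2 −1.30 ± 0.41 SE, adjusted p = 0.119). It was called by DESeq2 (log2 −1.28, adjusted p = 0.0633), when scaled by library size alone (log2 −1.5, adjusted p = 0.0986), and without pull-down 2 (log2 −1.59, adjusted p = 0.0433) or 3 (log2 −1.4, adjusted p = 0.092) of the Cre+ label.

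Stxbp6, which encodes amisyn, a binding partner of syntaxin, was listed only for the libraries of the Cre- label, at 23.4, 22.1 and 9.6 in pull-downs against 6.96, 5.2 and 3.41 (3.56-fold, log2 1.83 ± 0.42 SE, adjusted p = 0.0106). That call held without any 1 library.

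Stxbp3a, the symbol used here for Stxbp3, encodes the ubiquitous Munc18c. Its levels under the Cre+ label were 19.6 to 37.8 in pull-downs and 4.07 to 11.6 in inputs (log2 1.91 ± 0.67 SE, adjusted p = 0.135), and under the Cre- label they were 2.9 to 3.46 and 4.21 to 8.42 (log2 −0.85 ± 0.48 SE, adjusted p = 0.254). Without pull-down 1 the first was 1.62 (adjusted p = 0.121), and it was called enriched by DESeq2 (adjusted p = 0.0185), by edgeR's exact test (0.0934) and with all 12 libraries in 1 fit (0.0223). The values are uncertain because Stxbp3b, annotated by RefSeq as the pseudogene Stxbp3-ps, shares 503 stretches of 50 bases with it, which is 70.9% of those in the pseudogene and 9.27% of those in Stxbp3, and only uniquely mapped reads were counted.

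All 6 vesicle proteins had positive fold changes under the Cre- label, and 2 were called enriched (all genes, 6.01%). Sv2b (chr7:75114894-75309262), a vesicle glycoprotein, had 1339, 1037 and 844 in the pull-downs and 502, 336 and 305 in the inputs (2.82-fold, log2 1.50 ± 0.22 SE, adjusted p = 0.000849). Sv2a, its paralog and the binding site of levetiracetam, had 45, 25 and 23.4 against 15.2, 16.8 and 9.02 (2.28-fold, log2 1.19 ± 0.34 SE, adjusted p = 0.031). Pull-downs were above inputs for both. The call of Sv2b held without any 1 library, and that of Sv2a was lost without input 3 (adjusted p = 0.116) or, by the fold limit, without pull-down 1. Sv2c had a log2 fold change of 0.45 ± 0.16 SE, adjusted p = 0.0799, with each pull-down above each input.

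The synapsins tether vesicles in the reserve pool, and none was called. Syn1 had 1559, 1821 and 1812 in the pull-downs of the Cre- label and 1416, 1253 and 1069 in the inputs (log2 0.47 ± 0.15 SE, adjusted p = 0.0447). Syn2 had 163, 201 and 157 against 116, 121 and 108 (log2 0.59 ± 0.16 SE, adjusted p = 0.0279). Both passed the adjusted p but stayed under 2-fold, and no pull-down overlapped an input.

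No vesicle protein was called under the Cre+ label. Syn1 was at 839, 1021 and 1292 in pull-downs and 1026, 1031 and 930.4 in inputs (log2 0.08 ± 0.24 SE, adjusted p = 0.878), and Syn2 at 24.8, 84.9 and 43.3 against 109, 98.8 and 103 (log2 −1.02 ± 0.47 SE, adjusted p = 0.228). Sv2a was at 7.66, 27.1 and 6.7 against 9.08, 11.7 and 11.8 (log2 0.34 ± 0.72 SE, adjusted p = 0.808), and Sv2b at 750.5, 492 and 499 against 349.8, 316 and 254 (log2 0.92 ± 0.27 SE, adjusted p = 0.101). Sv2b pull-downs were all above the inputs and Syn2 pull-downs all below them, whereas Syn1 and Sv2a overlapped. Without pull-down 1 the log2 fold change was 0.253 (adjusted p = 0.458) for Syn1, −0.654 (adjusted p = 0.255) for Syn2, 0.674 (adjusted p = 0.522) for Sv2a and 0.728 (adjusted p = 0.0832) for Sv2b. Without pull-down 2, Syn2 was called depleted (log2 −1.58, adjusted p = 0.091) and Sv2b enriched (log2 1.04, adjusted p = 0.0985), and Syn2 was also called with all 12 libraries in 1 fit (log2 −1.01, adjusted p = 0.0553).

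Rims1, Rims2 and Rims3 encode RIM proteins of the active zone, where vesicles dock, and none was called. Rims1 had 34.8, 28.4 and 26.2 in the pull-downs of the Cre- label and 21.8, 17.8 and 16.7 in the inputs (log2 0.67 ± 0.25 SE, adjusted p = 0.0914), and 39.1, 25.9 and 13.8 against 21, 18.8 and 19.2 under the Cre+ label (log2 0.42 ± 0.58 SE, adjusted p = 0.699). Rims2 had 75.2, 87.9 and 64.6 against 54.1, 65 and 57.5 under the Cre- label (log2 0.37 ± 0.19 SE, adjusted p = 0.212), and 91.7, 109 and 94.4 against 38.3, 59.4 and 57.5 under the Cre+ label (log2 0.93 ± 0.37 SE, adjusted p = 0.17). The groups were apart for Rims1 under the Cre- label and for Rims2 under the Cre+ label. Without pull-down replicate 1, Rims2 was called enriched in the latter (log2 1.02, adjusted p = 0.0849) and Rims1 was at 0.0519 (adjusted p = 0.958).

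Of the 8 syntaxins of endosomes, the Golgi apparatus and the endoplasmic reticulum (ER), only Stx18 was called. Stx18 (chr5:38036729-38137770), a syntaxin of the ER, had 36.1, 54.5 and 64.2 in the pull-downs of the Cre- label and 25.5, 12.3 and 23.2 in the inputs (2.54-fold, log2 1.34 ± 0.31 SE, adjusted p = 0.0109), with no overlap. Under the Cre+ label it had 8.21, 17.7 and 5.43 against 16.7, 24.4 and 23.1 (log2 −1.04 ± 0.66 SE, adjusted p = 0.367), with overlap, and without pull-down 1 it was at −0.85 (adjusted p = 0.39). Its counts are uncertain, because 32.3% of its exon bases overlap the antisense genes Gm42858 and Nsg1, and without strand their reads cannot be told apart. The other 7 had log2 fold changes from −0.87 to 0.50 under the Cre- label and 6 of them from −1.41 to 0.71 under the Cre+ label.

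Summed over all listed members, these genes took 2.97% to 3.26% of normalised counts in the pull-downs of the Cre- label and 1.78% to 1.97% in the inputs, and most of that gap was Snap25. Snap25 alone took 1.51% to 1.64% and 0.624% to 0.839%, and without it the sums were 1.42% to 1.63% and 1.13% to 1.18%. The corresponding sums under the Cre+ label were 1.48% to 1.87% in pull-downs and 1.62% to 1.96% in inputs. Pan-neuronal markers (10 genes) summed to 35300 to 43700 normalised counts in pull-downs against 20200 to 22700 in inputs for the libraries of the Cre- label, and 18100 to 20600 against 17400 to 21100 for those labelled Cre+. Most of the former gap was Nefl and Nefm, without which the sums were 6830 to 7740 and 5300 to 5660. Without these genes the sums under the Cre+ label were 3800 to 4020 in pull-downs, all below the 4940 to 6400 in inputs. Of the 10 markers, 2 were enriched under the Cre- label (Nefm and Nefh) and 0 depleted, at a median log2 fold change of 0.117, and Rbfox3, Tubb3 and Thy1 were at −0.76, −0.35 and −0.03. Under the Cre+ label Stmn2, Tubb3 and Uchl1 were depleted and 0 enriched, at a median of −0.182. Markers of other sensory neurons (9 genes listed for Cre-) summed to 479 to 1480 in pull-downs against 2440 to 2620 in inputs, and 8 listed glial markers to 1260 to 1670 against 2770 to 4290, under the Cre- label. The glial gap was that of Pmp22, at 707 to 1159 against 2400 to 3848, which is not restricted to glia. Without it the glial sum was 509 to 588 in pull-downs and 359 to 439 in inputs, most of it S100b (log2 0.69, adjusted p = 0.0115 by edgeR, under the fold limit). Of the 7 glial markers tested under the Cre- label, only S100b rose, and the glial median lay at log2 −1.31 (all genes, −0.0384). Besides Pmp22, Fabp7 was called depleted (log2 −3.09, adjusted p = 0.0491 by edgeR), at 0 to 0.502 in pull-downs and 1.4 to 3.11 in inputs. None of the listed markers was at 0 in all libraries of a group. In these bulk samples fewer cells of a type and less RNA per cell cannot be told apart, and the part of cell composition in the values above was not tested.

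The difference of enrichment between the genotypes was tested for 48 of these genes. Of them, 3 (6.25%) were higher under the Cre+ label (Cplx2, Stxbp3a and Syt6) and 4 (8.33%) higher under the Cre- label (Snap25, Snap91, Stx18 and Vamp1), against a background of 2.33% and 2.03% of 8954 genes. Between the genotypes, 25 of 48 fold changes had the same sign. Syt6 differed by a log2 of 1.98 ± 0.34 SE, adjusted p = 0.0155 (Cre+ minus Cre-), and Snap25 by −1.76 ± 0.30 SE, adjusted p = 0.0155, and these 2 calls held without any 1 of the 12 libraries.

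Cplx2 differed by 2.39 ± 0.53 SE, adjusted p = 0.0496, with opposite signs in the genotypes and no overlap of pull-downs and inputs in either. Vamp1 differed by −1.58 ± 0.38 SE, adjusted p = 0.064, and Snap91 by −1.31 ± 0.33 SE, adjusted p = 0.0689. Stxbp3a differed by 2.79 ± 0.74 SE, adjusted p = 0.0775, and Stx18 by −2.34 ± 0.69 SE, adjusted p = 0.0999, both with the uncertainty in counting given above. Each of these 5 calls was lost without any 1 of the inputs of the Cre- label or its pull-down 3, with adjusted p up to 0.163 for Cplx2, 0.179 for Vamp1, 0.199 for Snap91, 0.216 for Stxbp3a and 0.255 for Stx18. Leaving out an input of the Cre+ label also ended them (input 1 or 3 for Cplx2 and Vamp1, input 2 or 3 for Snap91 and Stxbp3a, any of the 3 for Stx18), as did leaving out pull-down 2 of the Cre- label for all but Cplx2 and pull-down 1 for Stxbp3a and Stx18. Without pull-down replicate 1 labelled Cre+, all 7 were still called, among 6 higher under the Cre+ label and 7 higher under the Cre- label (all genes, 7.09% and 6.7%). With a replicate block 4 of the 7 were called, and Vamp1 (adjusted p = 0.117), Stxbp3a (0.139) and Stx18 (0.159) were not. Stx18 also lost its call with upper-quartile scaling (adjusted p = 0.106), without a gene filter (0.101), with a count filter (0.101) and without the robust option (0.1).

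Vamp2 (log2 0.55 ± 0.25 SE, adjusted p = 0.243), Stx1a (0.72 ± 0.97 SE, adjusted p = 0.711), Snap23 (1.70 ± 1.40 SE, adjusted p = 0.523) and Syt2 (−1.39 ± 0.67 SE, adjusted p = 0.27) did not pass in the difference, so their changes under the Cre- label were not shown to differ from those under the Cre+ label. For Syt2 this rested on pull-down 2 of the Cre+ label, without which the difference was −2.49 on the log2 scale (adjusted p = 0.00789). Without the same library Syn2 (log2 −2.17, adjusted p = 0.0113) and Sv2a (log2 −1.76, adjusted p = 0.094) were also called higher under the Cre- label. Without pull-down 1 of the Cre+ label, Snap23 differed by −1.6 (adjusted p = 0.213), with the sign turned and no call, while Syn2 (log2 −1.23, adjusted p = 0.0488) and Syt9 (log2 1.27, adjusted p = 0.0678) were called.

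**Figure D3:**
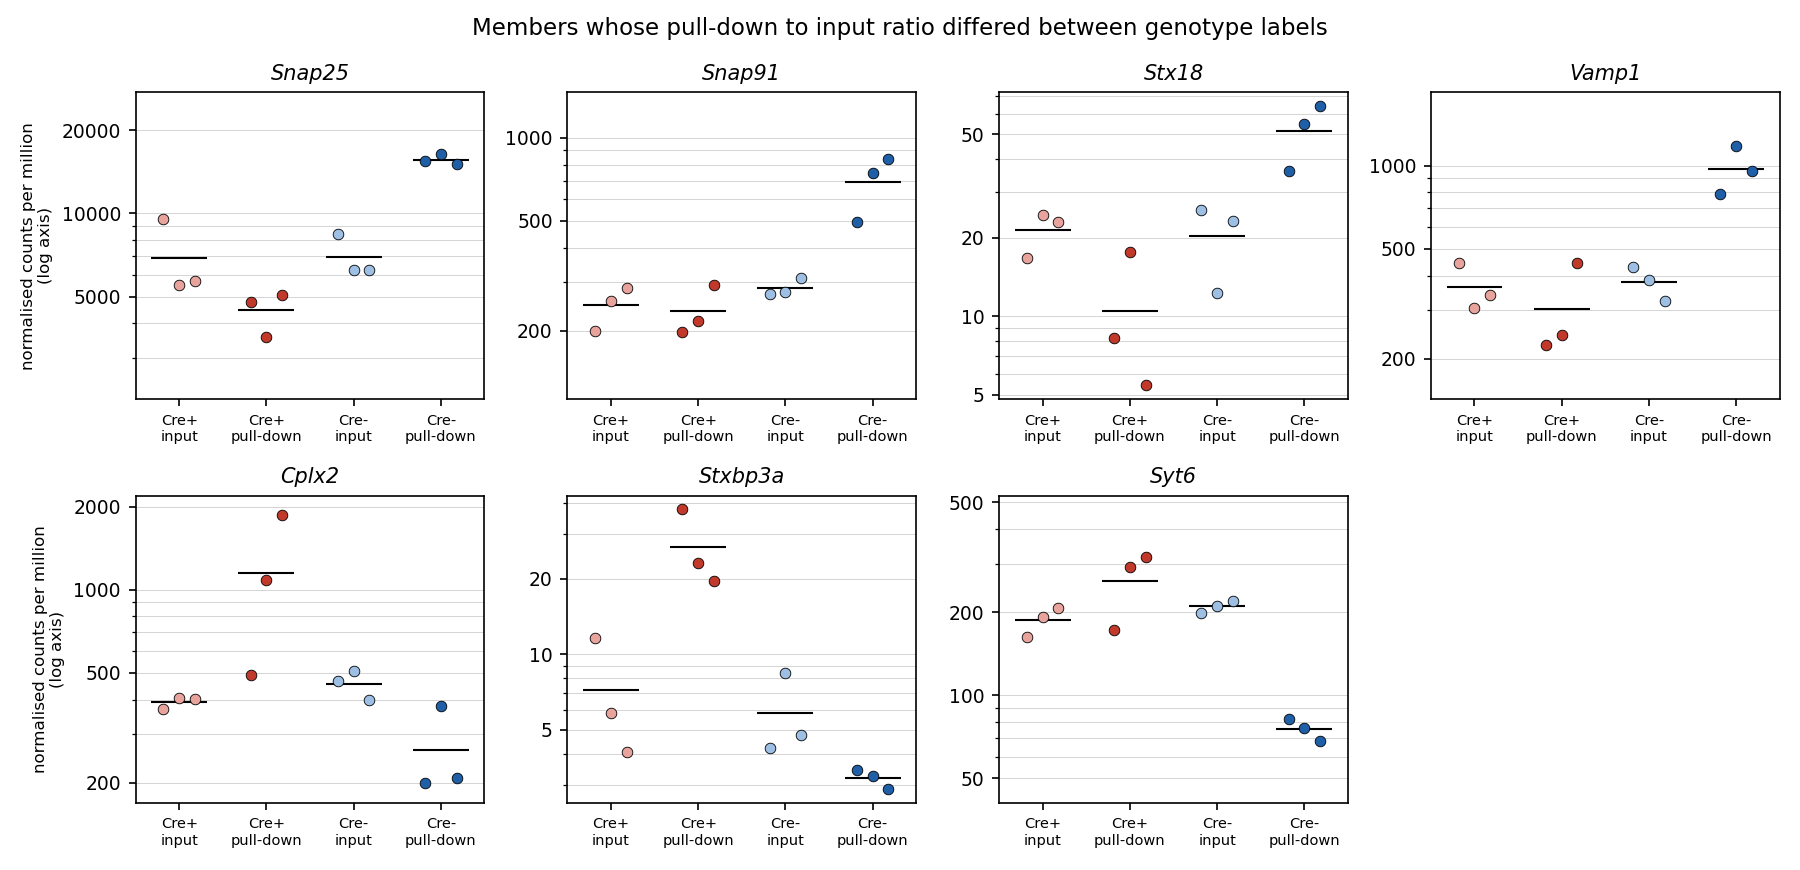
Normalised counts per 1000000 (log axis) in every library for the 7 genes whose pull-down to input ratio differed between the genotype labels, with points for libraries and bars for means. Upper row, higher under the Cre- label, where the blue pull-downs stand above their inputs. Lower row, higher under the Cre+ label, where red pull-downs lie level with or above their inputs and blue pull-downs below.

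**Figure D4:**
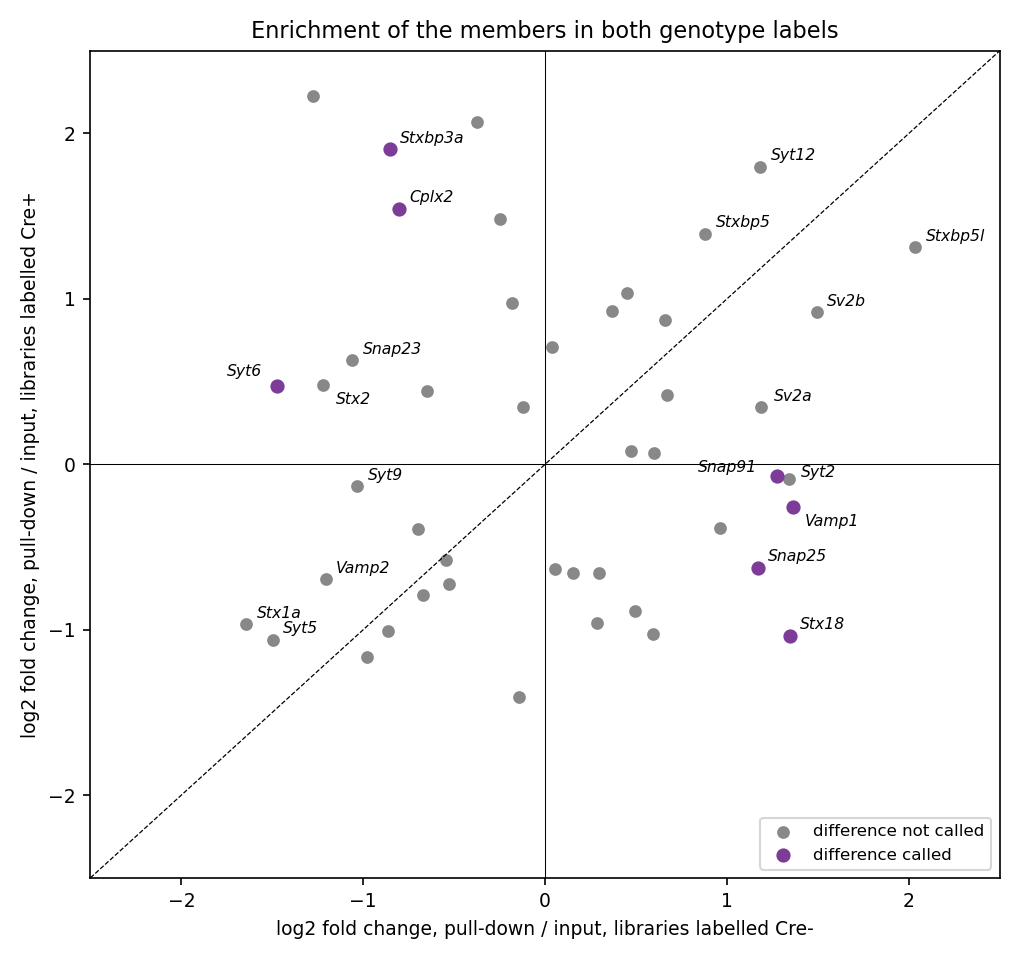
Log2 fold change of pull-down over input for 46 of the 48 genes tested in both genotypes, libraries labelled Cre- on the horizontal axis and Cre+ on the vertical axis, with the line of equal change dashed. The 7 genes called in the difference (purple) lie in the upper left and lower right, where the signs are opposite, and Stxbp5l lies at the far right of the upper right quadrant.

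A further 47 genes of the vesicle cycle that the symbols do not take in were counted in the same fits. This list was chosen with earlier results of these data known. With the Cre- label, 11 of 46 tested (23.9%) were enriched and 1 depleted, at a median log2 fold change of 0.457 (all genes, 6.01% and 5.83% called, median −0.0384). With the Cre+ label, 6 of 42 (14.3%) were enriched and 2 depleted, at a median of 0.389 (all genes, 4.72% and 2.19% called, median 0.076). Dnm3, a dynamin that cuts vesicles from the membrane, Synj1, the lipid phosphatase that uncoats them, Pclo, the active zone scaffold piccolo, and Unc13a, the priming factor Munc13-1, were enriched under both labels. The calls of the Cre+ label depended on single libraries. Without input 1 or 3 of that label, 0 of the 42 genes were enriched (all genes, 0.0782% and 0.0447%), without input 2 the 3 were Dnm3, Pclo and Synj1 (all genes, 0.659%), and without pull-down 1 there were 11 (all genes, 8.98%). With a replicate block 4 were enriched (all genes, 2.37%), and Unc13a (adjusted p = 0.128) and Unc13c were not. Scaled by library size alone, 4 were enriched and 7 depleted at a median of −0.0424 (all genes, 2.15% and 7.81%, median −0.361), and Unc13a was called under neither label (log2 0.917, adjusted p = 0.122, under Cre+ and 0.805, under 2-fold, under Cre-). The depleted count of the Cre+ label was 5 by DESeq2 (all genes, 6.35%), 5 by the exact test (5.11%) and 6 with all 12 libraries (10.6%), beside 7, 6 and 8 enriched (12.3%, 8.79% and 14%). Leaving out each library of the Cre- label gave 10 to 12 enriched (all genes, 4.99% to 7.09%) and 0 to 5 depleted genes there (all genes, 4.55% to 9.2%).

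Synj1 had 1107, 1280 and 1064 in the pull-downs of the Cre- label against 338, 366 and 342 in inputs (log2 1.72 ± 0.14 SE, adjusted p = 2.78e-05), and 1099, 923 and 1097 against 264, 345 and 313 under the Cre+ label (log2 1.76 ± 0.24 SE, adjusted p = 0.0249; without pull-down 1, 1.76, adjusted p = 0.00837). No pull-down overlapped an input. The others enriched under the Cre- label were Amph, Dnm1, Rab3c, Rimbp2, Slc17a7, Sncb and Snph, with log2 fold changes of 1.13 to 1.73, and the depleted gene was Cadps2. Those of the Cre+ label were Bsn and Unc13c, with Snapin and Sncg depleted. The difference was called for Unc13c, higher under the Cre+ label (log2 1.91 ± 0.46 SE, adjusted p = 0.064), and for Amph, Napg, Nsf, Slc17a7 and Syp, higher under the Cre- label. These were 1 and 5 of 42 tested (all genes, 2.33% and 2.03%), and 0 and 3 with a replicate block (all genes, 0.57% and 0.715%). Leaving out each of the 12 libraries gave 0 to 5 and 0 to 7 (all genes, 0.145% to 7.96% and 0.335% to 7.75%). Both counts were 0 without input 2, input 3 or pull-down 3 of the Cre- label (all genes, 0.145% to 0.246% and 0.335% to 0.447%).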

How the data were processed

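HA pull-downs and inputs of cultured DRG neurons were sequenced as 12 libraries, grouped by genotype and fraction from the labels. The authors aligned reads to mm10 with STAR and deposited counts per gene from HTSeq (refSeq refFlat, uniquely mapped reads), which are whole numbers and not normalized, in a table for each genotype. The same tables hold the authors' mean FPKM, used as a filter and to compare levels between genes, and the authors' log2 fold changes, p-values and FDR, which were not used. A further 18 columns of values by sample were not used. Cre+ columns were mapped to their group only. The submitters' processing notes name CASAVA 1.8.2 and edgeR.

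All listed genes passing a mean FPKM of 1 entered the test of counts with edgeR 4.0.16 in R 4.3.3 (TMM, robust quasi-likelihood test, Benjamini-Hochberg over all genes tested). Genes were called at an adjusted p below 0.1 and a 2-fold change, without a replicate block. The difference was the genotype by fraction interaction over 12 libraries, for genes of both tables whose mean FPKM over both exceeded 1. Standard errors are the log2 fold change divided by the square root of F. Scripts were tested on simulated counts. Counts per library ranged from 8886308 to 18633365, which limits precision for the lowest genes. Paralog sequences came from GENCODE M21 (Biopython 1.88), gene positions from RefSeq, both on GRCm38, and all 59 genes were matched. Figures were drawn with matplotlib 3.10.9.

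The symbol rule for the members and the lists of other genes were set with earlier results of these data known. Values in every library are given for 13 core release genes and the called genes, ranges for 5 ubiquitous paralogs, and counts for the rest. The values of 2 of the 59 genes are not reported here, though the counts and medians include them. Per the methods, inputs were set aside from the same lysates as the pull-downs, but the labels do not say that a number marks 1 lysate. Deviations of same-numbered pull-downs and inputs from group means correlated at 0.0673, 0.0278 and 0.124 (Cre-) and −0.0113, −0.00261 and 0.0091 (Cre+, numbered by column). Pairs of unlike number correlated at −0.11 to 0.0251 (Cre-) and −0.0243 to 0.0217 (Cre+). Each Cre- pull-down thus correlated best with the input of its own number, and no Cre+ pull-down did. The replicate block is kept as an alternative, given beside calls it changes. The alternatives were DESeq2 1.42.0, edgeR's exact test, other scalings and filters, an adjusted p below 0.05, no fold limit, all 12 libraries in 1 fit, a replicate block, each library left out and, added after the data were seen, the test without the robust option.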

Additional observations from a re-analysis of the deposited data

Results flagged for a closer look

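The genes below were singled out because their pull-down to input ratios differed between the genotype labels by a test of the difference itself (edgeR interaction, adjusted p below 0.1 and 2-fold). Among the members the log2 difference, Cre+ minus Cre-, was 2.79 for Stxbp3a, 2.39 for Cplx2, 1.98 for Syt6, −1.31 for Snap91, −1.58 for Vamp1, −1.76 for Snap25 and −2.34 for Stx18. Among other vesicle-cycle genes it was 1.91 for Unc13c, −1.14 for Nsf, −1.49 for Syp, −1.75 for Amph, −1.84 for Napg and −1.85 for Slc17a7. No gene was singled out by a test of a single outlying value, for which groups of 3 libraries are too small. With each of the 12 libraries left out in turn, the differences of Syt6 and Snap25 were called throughout, and those of the other 5 members were lost in 6 to 9 fits. Of the 42 other vesicle-cycle genes tested, 0 were called either way without input 2, input 3 or pull-down 3 of the Cre- label. In these fits 0.145% to 0.246% of all genes were called higher in Cre+ and 0.335% to 0.447% higher in Cre-.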

How the results depend on the processing

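Shares in parentheses are those of all genes tested in the same fit. In the libraries labelled Cre+, the 3 enriched and 0 depleted of 48 genes became 5 and 1 with DESeq2 (12.3% and 6.35%), 6 and 1 with edgeR's exact test (8.79% and 5.11%), 0 and 4 scaled by library size alone (2.15% and 7.81%), and 6 and 3 with all 12 libraries in 1 fit (14% and 10.6%). The enriched count was 1 with upper-quartile scaling (2.78%) and 0 at an adjusted p below 0.05 (1.55%). Leaving out each library in turn gave 0 to 6 enriched (0.0447% to 8.98%) and 0 to 2 depleted (0% to 6.04%), and a median log2 fold change of 0.00377 to 0.108. That median was 0.139 with DESeq2, −0.365 scaled by library size and −0.119 with upper-quartile scaling. For Snap23 the log2 fold change ran from −2.68, without pull-down replicate 1, to 1.34. In the libraries labelled Cre-, the 11 enriched and 9 depleted genes became 6 and 2 with all 12 libraries in 1 fit, where 48 in place of 56 were tested (3.03% and 1.97%), 19 and 16 without the fold limit (13% and 11.1%), and 7 and 13 when scaled by library size (3.72% and 10.7%). Leaving out each library gave 9 to 12 enriched (4.99% to 7.09%), 6 to 8 depleted (4.55% to 9.2%) and a median of −0.115 to 0.211. The median was −0.0168 with DESeq2, −0.275 by library size, −0.0681 with upper-quartile scaling, −0.148 without a filter, −0.152 with a count filter and 0.0804 with all 12 libraries. For the difference, leaving out each library gave 1 to 6 genes higher in Cre+ (0.145% to 7.96%), 1 to 9 higher in Cre- (0.335% to 7.75%) and a median of −0.215 to 0.0518. That median was −0.31 by library size and −0.252 with upper-quartile scaling, and 1 gene was higher in Cre- at an adjusted p below 0.05 (0.67%). The cause of these shifts was not tested. Of the values for single genes under all alternatives, 1507 stayed on the same side of the call (35 of them, not called, with the sign turned), 115 lost and 36 gained a call, and 1 reversed.

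With the replicate number as a block, 11 genes were enriched and 8 depleted in the libraries labelled Cre- (6.11% and 6.87%), at a median of −0.088. Vamp3 gained a call there, and Snap23 and Syt15 lost theirs. In the libraries labelled Cre+, 1 gene was then enriched and 0 depleted (2.37% and 0.548%), at a median of −0.0994, and Cplx2 and Stxbp5l lost their calls. In the difference, 2 genes were higher in Cre+ and 2 in Cre- (0.57% and 0.715%), at a median of −0.268, and Vamp1, Stxbp3a and Stx18 lost their calls. The block changed no other call among the members given with values. Of the other vesicle-cycle genes, Unc13a and Unc13c lost their enrichment under the Cre+ label with the block. The number depleted went from 2 to 1 there (0.548%) and from 1 to 4 under the Cre- label (6.87%). In the difference, calls of these genes higher in Cre+ went from 1, that of Unc13c, to 0 (0.57%). Those higher in Cre- went from 5 to 3 (0.715%).

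Precision from depth covers counting error only, since PCR copies could not be told from separate molecules. Genes such as Syt15 and Syt16, at low normalised counts, rest on few reads.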

Other observations

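Spread between replicates differed by group. Over the members tested, the ratio of the highest to the lowest library in a group had a median of 2.8 among the pull-downs labelled Cre+ (48 genes), against 1.48 in their inputs, 1.52 in the pull-downs labelled Cre- (56 genes) and 1.4 in the inputs labelled Cre-. It exceeded 10 for 7 genes among the pull-downs labelled Cre+ (Rims3, Snap23, Stx11, Stx1a, Syt12, Syt5 and Vamp3), for 0 in their inputs and in the pull-downs labelled Cre-, and for Syt17 in the inputs labelled Cre-.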
